A study of Homo sapiens with 6 samples.

Results

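The ADAM, ADAMTS and MMP metalloproteases and their TIMP inhibitors were compared in SH-SY5Y cells, a human neuroblastoma line, with and without added *Esrrg*. Members were the protein-coding genes whose symbol is ADAM, ADAMTS or MMP followed only by digits, with *TIMP1* to *TIMP4*, and 65 of the 67060 genes counted met this rule. They were 20 ADAM, 19 ADAMTS, 22 MMP and 4 TIMP genes, and the rule itself reads only symbols and gene types. Of these, 44 reached a mean of 10 counts over the 6 libraries, namely 13 ADAM, 14 ADAMTS, 13 MMP and 4 TIMP genes.

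The study asked which genes respond to the nuclear receptor ERRγ in a catecholaminergic line. Total RNA was depleted of ribosomal RNA and sequenced from cells collected 24 h after infection. Ad CMV GFP (replicates 1, 3 and 4) is an adenovirus carrying GFP, and Ad CMV 3xFlag-*Esrrg* (replicates 2, 3 and 4) an adenovirus carrying the mouse *Esrrg* coding sequence with a 3xFlag tag behind the viral CMV promoter. Both groups were thus infected, uninfected cells were not compared here, and all libraries came from 1 line. The sources do not say that replicates were separate cultures, so the p-values measure only the spread between these libraries.

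Metalloproteases of these families hold a zinc ion in their active site and cut proteins at the cell surface or outside the cell. ADAM proteins sit in the membrane and release the outer parts of receptors, growth factors and adhesion molecules, ADAMTS proteins are secreted and cut proteoglycans and procollagens, and MMPs cut collagens and other matrix proteins or activate each other. TIMPs bind the active sites of these enzymes and block them, and in the nervous system the balance of the families is known for its part in remodelling perineuronal matrix and in shedding of neuronal surface proteins.

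Before the results, the libraries themselves were examined. Between 24969759 and 29700980 counts fell on genes in the Ad CMV GFP libraries and between 26513620 and 40859666 in the Ad CMV 3xFlag-*Esrrg* libraries. Members took 0.338 to 0.347% of these counts in the first group and 0.304, 0.309 and 0.344% in the second. The share of reads on no counted part of a gene was 51.3 to 52.2% in the Ad CMV GFP libraries. It was 46.6% in Ad CMV 3xFlag-*Esrrg* replicate 2 and 31.6 and 29.5% in replicates 3 and 4. This class can include reads within introns. The share thus moved with the groups, and replicate 2 stood nearer to the controls. *ESRRG* itself gave 2357, 2796 and 2876 counts against 15228, 25994 and 26497, a log2 fold change of 3.02 ± 0.14 (SE), where reads of the mouse coding sequence count only as far as they align to the human gene. The labels call the cells neuronal progenitors. The neural progenitor markers *SOX1* and *HES5* had 0 counts in every library while *NES* and *VIM* were detected, *TH* had 0 counts, and *HAND2* and *GATA3* of the sympathoadrenal lineage were detected. The summed level of 7 fibroblast and mesenchymal markers was 1564 to 1627 counts per 1000000 (CPM) against 1194 to 1324, with 1 marker called higher and 3 lower, whereas the summed endothelial, immune and glial lists each stayed at or below 8.23 CPM in all libraries. The part of these markers and of the reads on no counted part of a gene in the results that follow was not tested, except where a value is given.

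Promoters of 4 members that changed are shown here, to set the sequence beside the values of both inhibitors that rose, an MMP of the chromosome 11 cluster and the ADAM with the largest rise. Each is the 250 bases before the RefSeq transcript start on GRCh38.p14, read 5′ to 3′ on the strand of the gene, in lower case with matches to the searched motifs in capitals. *TIMP1* is at chrX:47582186-47582435 on the plus strand, *TIMP4* at chr3:12158913-12159162, *MMP10* at chr11:102780629-102780878 and *ADAM19* at chr5:157575776-157576025, all 3 on the minus strand.
TIMP1: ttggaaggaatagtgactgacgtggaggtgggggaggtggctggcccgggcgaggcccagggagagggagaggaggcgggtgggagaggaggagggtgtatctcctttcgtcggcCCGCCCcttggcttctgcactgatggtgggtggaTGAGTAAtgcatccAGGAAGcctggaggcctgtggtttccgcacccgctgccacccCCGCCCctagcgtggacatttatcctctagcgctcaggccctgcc
TIMP4: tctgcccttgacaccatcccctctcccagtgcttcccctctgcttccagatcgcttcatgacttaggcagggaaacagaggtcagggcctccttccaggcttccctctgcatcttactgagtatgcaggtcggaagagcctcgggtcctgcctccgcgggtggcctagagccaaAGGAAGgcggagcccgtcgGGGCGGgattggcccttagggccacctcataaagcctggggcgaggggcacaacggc
MMP10: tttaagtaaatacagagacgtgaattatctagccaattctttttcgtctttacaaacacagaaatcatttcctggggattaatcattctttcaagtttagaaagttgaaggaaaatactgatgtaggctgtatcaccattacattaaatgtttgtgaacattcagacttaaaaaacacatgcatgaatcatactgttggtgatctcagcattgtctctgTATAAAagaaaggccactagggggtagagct
ADAM19: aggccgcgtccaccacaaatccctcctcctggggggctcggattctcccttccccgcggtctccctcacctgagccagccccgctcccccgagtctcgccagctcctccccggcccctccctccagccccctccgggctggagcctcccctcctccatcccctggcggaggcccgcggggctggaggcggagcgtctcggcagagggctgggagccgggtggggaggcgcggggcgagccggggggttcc

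Motifs were searched on both strands in the promoters of the 38 members that matched the RefSeq table, of which 11 were called members. The other 27 members, with *MMP1*, *MMP3* and *MMP12* among them, had no entry and were not searched. The ERR response element TCAAGGTCA, the sequence that ERRγ is known to bind, and its core AAGGTCA, which lies within it, were found in 0 of the 38, against 0.319% and 3.44% of all 35116 promoters of the same length. These letters are thus absent from these windows, and sequence farther away was not searched. Of these 38, the AP-1 site TGAGTCA was found in the *MMP7* promoter alone (4.2% of all promoters) and the related TGAGTAA in that of *TIMP1* alone (2.21%). In *TIMP1* the TGAGTAA began 101 bases before the start and an ETS core AGGAAG 87 bases before it, and *TIMP4* held AGGAAG 76 bases before the start. AGGAAG was found in 9 of the 38 members and in 28.7% of all promoters, the GC box GGGCGG in 25 members and in 42.6%, and the TATA box TATAAA, which in *MMP10* began 31 bases before the start, in 7 members and in 10.7%. The *ADAM19* promoter held none of the motifs. A match is a description of the letters only.

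Of the 65 members, 45 passed the filter on low counts and were tested, the 44 with a mean of 10 counts and *MMP9* with a mean of 9.67. A gene was called when its fold change was at least 1.5 and edgeR's quasi-likelihood test, adjusted by Benjamini-Hochberg across the 24500 genes in the fit, gave p under 0.05. By this rule 11 members rose, 8 fell and 26 were not called. In all, 42.2% of the tested members were called, against 34.1% of all genes tested and 38.3% of the protein-coding genes tested, and higher calls made up 17.3% and lower calls 16.8% of all genes tested (25.9% and 12.4% of the protein-coding genes). The share of members called was thus near that of protein-coding genes. Their median log2 fold change was -0.0039, against -0.10 over all genes tested and 0.12 over the protein-coding ones. The groups did not overlap in 32 tested members (71.1%), against 58.1% of all genes tested and 70.3% of the protein-coding ones.

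When libraries were scaled by size alone, 5 members were called higher and 15 lower, and the median over all genes tested moved from -0.10 to -0.42, so directions below are relative to the TMM scaling. Scaling by size alone ended the higher calls of *ADAM15*, *ADAMTS20*, *MMP10*, *MMP12*, *TIMP1* and *TIMP4* and added lower calls for *ADAM8*, *ADAMTS3*, *ADAMTS7*, *ADAMTS19*, *MMP19*, *MMP21* and *TIMP3*. When counts were corrected for GC content and length, the calls of *ADAM15*, *MMP16*, *MMP17* and *TIMP1* were lost, *ADAM9* was added as higher (0.87), and *ADAM8* (-1.08), *ADAMTS7* (-0.80) and *MMP15* (-0.75) were added as lower. No called member changed sign under any alternative. The calls of *ADAM19*, *ADAM22*, *ADAMTS1*, *ADAMTS10*, *ADAMTS15*, *MMP1* and *MMP3* held in every alternative fit. That of *ADAMTS17* held in every fit in which it was tested (all but the one that asked for 10 counts in every library). When the fraction of reads on no counted part of a gene was added to the fit (below, the read-fraction fit), 10 of the 19 called members were still called. An exact permutation test of 3 against 3 libraries cannot go below p = 0.1, so the calls rest on the spread that edgeR shares over genes. In bulk RNA, fewer cells of a kind and less RNA per cell cannot be told apart.

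**Figure D1:**
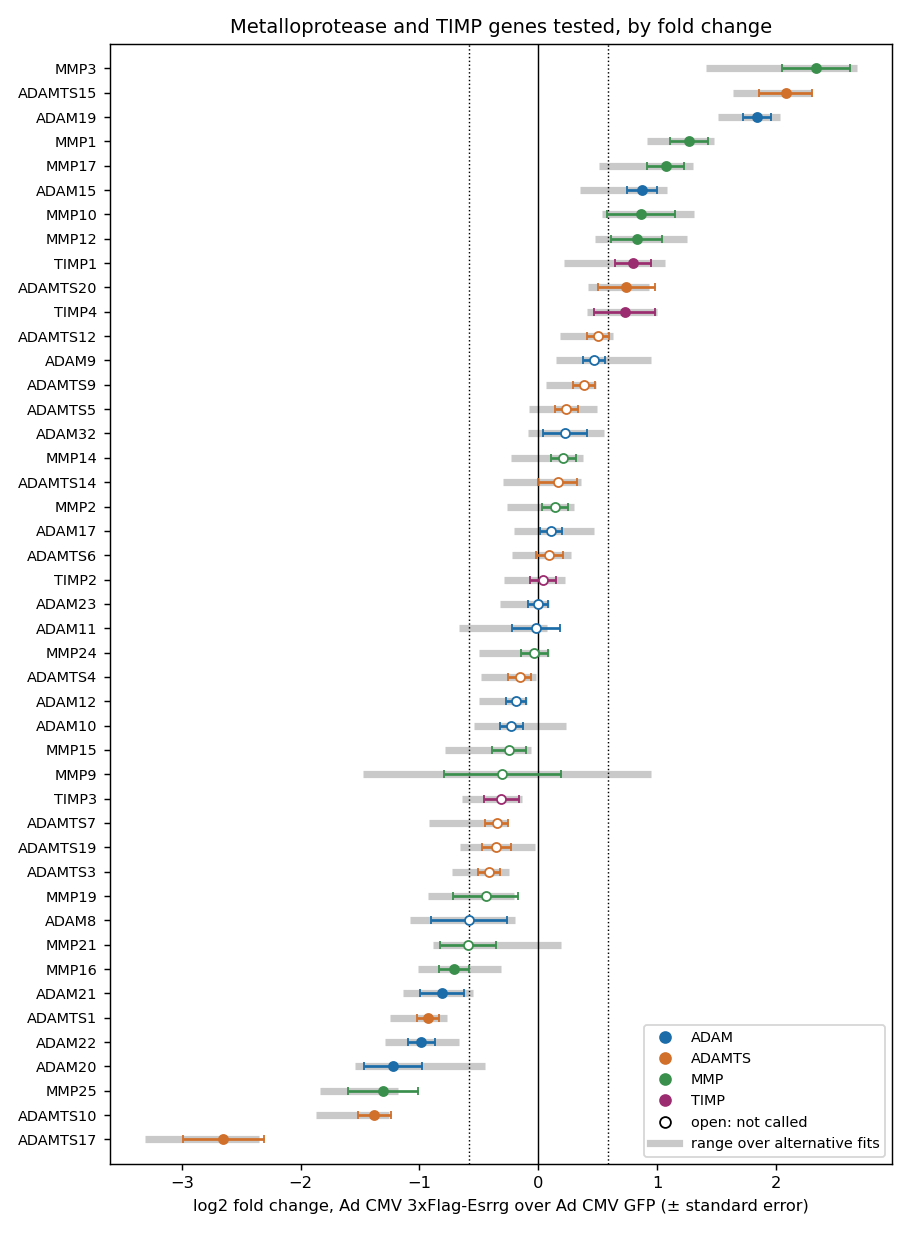
The 45 tested members, one per line, with the log2 fold change of Ad CMV 3xFlag-Esrrg over Ad CMV GFP on the x axis, bars of 1 standard error, and grey bands for the range over the alternative fits; filled points were called and dotted lines mark 1.5-fold. The 11 members called higher run from TIMP4 (0.73) to MMP3 (2.34) and the 8 called lower from MMP16 (-0.71) to ADAMTS17 (-2.65).

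Values in single libraries are given below as normalized CPM, in the order of replicates 1, 3 and 4 of Ad CMV GFP and then replicates 2, 3 and 4 of Ad CMV 3xFlag-*Esrrg*. Log2 fold changes are those of the second group over the first, with their standard error, and gene coordinates are those of GENCODE release 44 on GRCh38.

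Among the inhibitors, *TIMP1* and *TIMP4* rose while *TIMP2* and *TIMP3* were not called. *TIMP1*, a secreted inhibitor of most MMPs (chromosome X, 47582408 to 47586789), measured 69.7, 80.9 and 78.8 CPM with GFP and 101, 139 and 159 CPM with *Esrrg*. Every *Esrrg* library was above every GFP library, with replicate 2 the lowest of its group. The log2 fold change was 0.80 ± 0.15, or 1.74-fold (edgeR adjusted p = 0.00153). It was 0.66 to 1.07 when single libraries were left out, but 0.21 (adjusted p = 0.176) in the read-fraction fit, 0.46 when libraries were scaled by size alone and 0.58 when corrected for GC content and length, and each of these ended the call.

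*TIMP2*, which both blocks MMP2 and takes part in its activation at the cell surface, measured 365, 407 and 388 CPM with GFP and 353, 398 and 441 CPM with *Esrrg*. The groups overlapped, and the log2 fold change was 0.04 ± 0.11 (adjusted p = 0.791). *TIMP3* is bound to the matrix and is known to block ADAM17 and the aggrecan-cutting ADAMTS enzymes as well as MMPs. It measured 5.29, 5.85 and 5.56 CPM with GFP and 4.0025, 4.52 and 4.90 CPM with *Esrrg*, so the *Esrrg* libraries lay below the others without overlap, but its log2 fold change of -0.31 ± 0.15 did not pass the test (adjusted p = 0.103). *TIMP4*, the least abundant of the 4 per length with GFP, measured 1.14, 0.841 and 0.755 CPM against 1.72, 1.22 and 1.58 CPM. The *Esrrg* libraries were the higher ones, with a gap between the groups that was small beside their spread. The log2 fold change was 0.73 ± 0.26 (adjusted p = 0.0383), and the call was lost without GFP replicate 3 (0.68, adjusted p = 0.116), GFP replicate 4 (0.61, 0.144) or *Esrrg* replicate 4 (0.69, 0.0924). It was also lost when libraries were scaled by size alone (0.41, adjusted p = 0.254), among protein-coding genes only (0.59, 0.0625) and in the read-fraction fit (1.00, 0.0862).

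*TIMP1*, *TIMP3* and *TIMP4* lie inside synapsin genes on the opposite strand, and synapsins coat synaptic vesicles. *SYN2*, the host of *TIMP4*, rose from 11.4 ± 0.747 to 43.2 ± 2.13 CPM (SD, n = 3), a log2 fold change of 1.92, and 14.2% of the *TIMP4* exon bases face *SYN2* exons. The kit kept strand but the strand setting of the counting is not given in the sources used here. If counting ignored strand, reads on those bases fell on exons of both genes and were left out. Reads from host introns could then count for *TIMP1*, *TIMP3* or *TIMP4*. The part of the hosts in these counts was not tested. *SYN3*, the host of *TIMP3*, fell by 0.91 on the log2 scale, and *SYN1*, the host of *TIMP1*, was not called (0.54, adjusted p = 0.129 by edgeR). *TIMP1* and *TIMP3* share 0% of their exon bases with the exons of their hosts. *CEP295NL*, which lies inside *TIMP2* on the same strand, was not called (-0.32).

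Levels of different genes are compared as normalized CPM per kb of exon. *MMP2*, the gelatinase that cuts denatured and basement membrane collagen, was the most abundant member in both groups, at 118 ± 6.84 per kb with GFP and 130.3 ± 10.98 per kb with *Esrrg* (SD, n = 3). With GFP, *TIMP2* (62.3 ± 3.41 per kb) and *TIMP1* (52.9 ± 4.12) came next. With *Esrrg*, *TIMP1* (91.9 ± 20.03 per kb) stood second and *ADAM19* (70.2 ± 7.69) moved from rank 6 to rank 3 of the 44. The SD range of *ADAM19* met those of *TIMP1* and *TIMP2* (64.0 ± 7.08), although the order of these genes was the same in every *Esrrg* library. *ADAM22* moved from rank 7 (17.2 ± 0.503 per kb) to rank 12 (8.70 ± 1.19), *MMP1* from rank 11 to rank 7, and *MMP3* from rank 36 to rank 21.

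**Figure D2:**
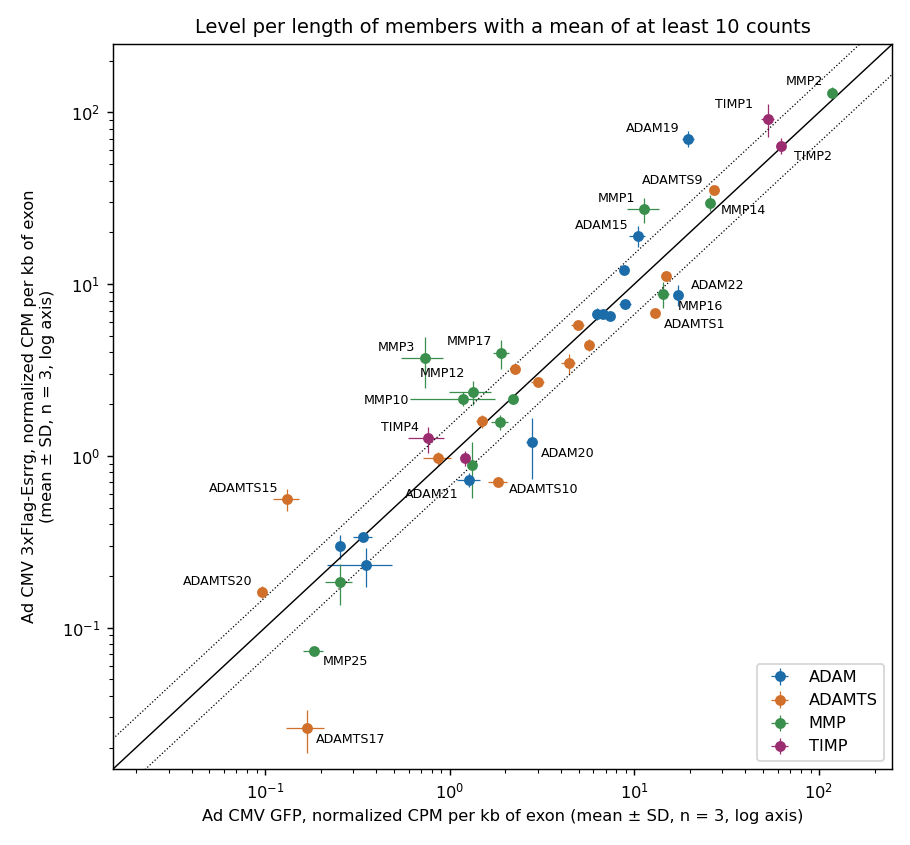
Level per length of the 44 members with a mean of at least 10 counts, as normalized CPM per kb of exon on log axes, Ad CMV GFP on the x axis and Ad CMV 3xFlag-Esrrg on the y axis (points, mean; bars, SD over 3 libraries; solid line, equal levels; dotted lines, 1.5-fold). MMP2 sits at the top end near equality, while ADAM19 moves from 19.6 to 70.2 per kb and ADAM22 from 17.2 to 8.70 per kb.

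Summed per length, the ADAM family had 89.5 to 91.5 per kb in the GFP libraries and 132.5, 143.9 and 145.3 per kb in the *Esrrg* libraries. Without *ADAM19* the same sum was 70.2 to 71.5 per kb with GFP and 70.0 to 71.2 per kb with *Esrrg*. Under this scaling the difference in the family sum thus equalled that of 1 gene, while other members moved in opposite directions. Among these, *ADAM15* went from 10.4 to 19.1 per kb and *ADAM22* from 17.2 to 8.70 per kb. The ADAMTS sum was 78.1 to 81.7 against 76.1 to 78.6 per kb, and these ranges overlapped. For the MMPs the sum was 171.5 to 191.6 against 196.3 to 228.4 per kb, and without *MMP2* 60.03 to 66.4 against 75.4 to 87.7 per kb. The TIMP sum was 109.0 to 123.5 against 129.3 to 183.1 per kb, and without *TIMP1* 60.8 to 67.5 against 59.2 to 73.4 per kb, so that the groups then overlapped. The ratio of the TIMP sum to the MMP sum was 0.636, 0.645 and 0.663 with GFP and 0.659, 0.752 and 0.802 with *Esrrg*, with *Esrrg* replicate 2 inside the range of the controls. When libraries were scaled by size alone, the ADAM sum was still higher (100.5 to 101.2 against 121.1 to 133.6), the MMP and TIMP sums overlapped between the groups, and the ADAMTS sum (87.1 to 92.2 against 63.5 to 79.2) and the ADAM sum without *ADAM19* (78.3 to 80.7 against 58.4 to 71.8) were lower. The ratio of 2 sums in a library does not depend on the scaling. None of these sums was tested.

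**Figure D3:**
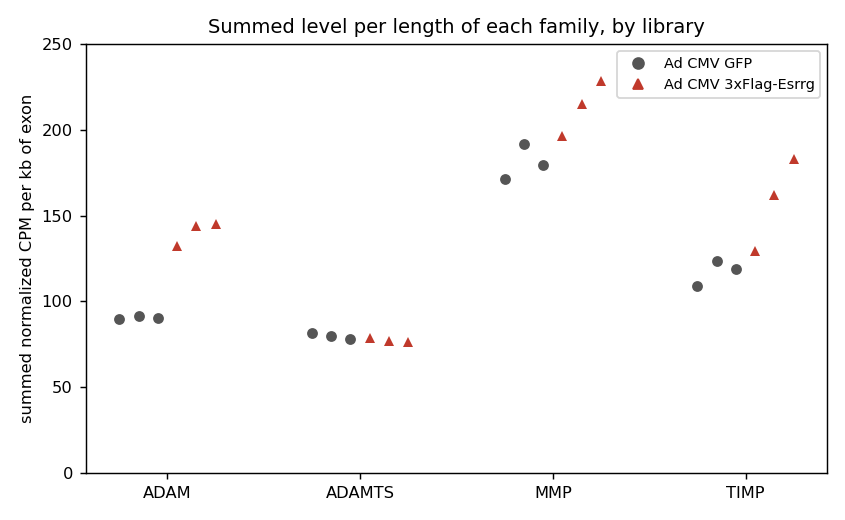
Summed level of each family in each library, as normalized CPM per kb of exon on a linear axis from 0 (grey circles, Ad CMV GFP; red triangles, Ad CMV 3xFlag-Esrrg). The ADAM sums separate the groups by the widest gap (89.5 to 91.5 against 132.5 to 145.3 per kb), and the ADAMTS sums overlap.

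Of the 9 ADAMs of the shedding kind, 7 were tested, and 2 rose (*ADAM19*, *ADAM15*) with none lower. *ADAM19*, known for shedding neuregulin (chromosome 5, 157395534 to 157575775), measured 139, 160.0 and 154 CPM with GFP and 472, 569.9 and 579 CPM with *Esrrg*. All *Esrrg* libraries were far above the controls, a log2 fold change of 1.84 ± 0.12, or 3.58-fold (adjusted p = 4.31e-06), which held in every alternative fit at 1.51 to 2.04. *CYFIP2*, the neighbour whose end faces 0.805% of the *ADAM19* exon bases, had a log2 fold change of 0.96. *ADAM15*, an ADAM that also binds integrins, measured 61.3, 74.6 and 70.0 CPM against 108, 125 and 144 CPM. The groups were apart (log2 fold change 0.88 ± 0.12, adjusted p = 0.000315), but the value was under 1.5-fold when libraries were scaled by size alone (0.55), with a correction for GC content and length (0.41) and in the read-fraction fit (0.52).

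The main sheddases of neuronal surface proteins, *ADAM10* and *ADAM17*, were not called. *ADAM10*, the α-secretase of the amyloid precursor protein and a Notch sheddase, measured 155, 138 and 136 CPM against 130.5, 121 and 115 CPM. The *Esrrg* libraries were the lower ones without overlap, yet the log2 fold change of -0.23 ± 0.10 missed the threshold (adjusted p = 0.0801), and with a correction for GC content and length it was 0.15. *ADAM17*, the enzyme that releases TNF and ligands of the EGF receptor, measured 100.5, 101 and 98.5 CPM against 117, 104 and 101 CPM. Here the groups just failed to overlap and the log2 fold change was 0.11 ± 0.09 (adjusted p = 0.368).

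*ADAM9* passed the test at less than 1.5-fold (155 ± 4.35 against 215 ± 9.89 CPM, log2 fold change 0.47, adjusted p = 0.00192). *ADAM12*, which is abundant in muscle and placenta, was not called at 73.3 ± 0.460 against 64.5 ± 2.07 CPM (-0.19), nor was *ADAM8* at 1.67 ± 0.638 against 1.11 ± 0.286 CPM (-0.58), although without GFP replicate 3 *ADAM8* was called lower (-0.84, adjusted p = 0.0471). The last members of this kind, *ADAM28* and *ADAM33*, reached at most 2 counts in a library.

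Of the 3 ADAMs that lack a working active site and act in neurons as adhesion receptors, *ADAM22* fell and *ADAM11* and *ADAM23* did not pass the test. *ADAM22*, the synaptic receptor of LGI1 (chromosome 7, 87934143 to 88202889), measured 243, 232 and 229.6 CPM with GFP and 137, 114 and 106 CPM with *Esrrg*. The *Esrrg* libraries were all lower, by 0.98 ± 0.11 on the log2 scale, to a fold change of 0.506 (adjusted p = 0.000104), and the call held in every alternative fit. *ADAM23*, which also binds LGI proteins, stayed at 43.3 ± 0.248 against 43.1 ± 1.76 CPM with a log2 fold change of -0.0039. *ADAM11* was at 1.64 ± 0.195 against 1.62 ± 0.0522 CPM. Of the 7 ligands and partners listed for these receptors only 2 were tested, and *LGI1* fell from 2.13 ± 0.465 to 1.06 ± 0.153 CPM (log2 fold change -1.01 ± 0.24, adjusted p = 0.00647).

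Of the 8 ADAMs known from sperm and testis, 3 were tested and 2 fell, both from 1 place on chromosome 14 (70417107 to 70535015, 118 kb). *ADAM20* measured 7.56, 7.34 and 8.37 CPM with GFP and 4.64, 3.42 and 2.03 CPM with *Esrrg* (log2 fold change -1.22 ± 0.24, adjusted p = 0.0021). Its neighbour *ADAM21* measured 4.75, 3.52 and 4.20 CPM against 2.24, 2.61 and 2.23 CPM (-0.81 ± 0.18, adjusted p = 0.00431). Both genes were lower in every *Esrrg* library. For *ADAM21*, 33.5% of its words of 31 bases also occur in transcripts of other genes, so its counts are uncertain, and the call of *ADAM20* was lost in the read-fraction fit (-0.45, adjusted p = 0.207). *ADAM32* was not called (2.56 ± 0.0881 against 3.01 ± 0.479 CPM), *ADAM7* reached at most 14 counts in a library, *ADAM29* 4 and *ADAM30* 3, and *ADAM2* and *ADAM18* had 0 counts throughout, which allows up to 3 counts in a library. Most of the words of *ADAM2* (74.9%), *ADAM18* (77.5%) and *ADAM32* (85.3%) also lie on alternate contigs of the genome, where reads may count as aligned to several places.

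ADAM proteins become active at the cell surface after a furin-like protease has removed their prodomain and tetraspanins or iRhoms have escorted them there. Of 13 listed genes for these steps 12 were tested, 5 rose and 0 fell, with a median log2 fold change of 0.43 against -0.10 over all genes and 0.12 over protein-coding genes. The share called, 41.7%, was near the 38.3% of protein-coding genes. The genes that rose were *TSPAN5* (41.8 ± 2.80 to 179 ± 16.1 CPM, log2 fold change 2.10), *TSPAN17* (0.99) and *TSPAN14* (0.75), tetraspanins that bind ADAM10, the protease gene *FURIN* (46.5 ± 2.82 to 81.2 ± 8.95 CPM, 0.80), and *RHBDF2* (0.67), which encodes an iRhom that matures ADAM17. Among 23 listed surface proteins that these enzymes shed, 18 were tested, 6 rose and 2 fell (44.4% called, median 0.21). The syndecans *SDC4* (31.03 ± 3.88 to 153 ± 28.7 CPM, 2.30), *SDC1* (1.19) and *SDC3* (0.80) rose, as did the growth factor gene *HBEGF* (1.23) and *CDH2*, which encodes N-cadherin (0.77). The 2 that fell were the adhesion molecule genes *NRCAM* (-0.67) and *NCAM1* (-0.63).

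Of the 7 ADAMTS genes whose products cut proteoglycans such as aggrecan and versican, 6 were tested, *ADAMTS15* and *ADAMTS20* rose and *ADAMTS1* fell. *ADAMTS15* (chromosome 11, 130448645 to 130476645) measured 0.709, 0.938 and 0.725 CPM with GFP and 2.81, 3.56 and 3.70 CPM with *Esrrg*. Its level was low but the groups were far apart, with a log2 fold change of 2.08 ± 0.22, or 4.24-fold (adjusted p = 7.58e-05). *ADAMTS8* lies beside it, the pair spanning 72 kb, and had 1, 2 and 3 counts against 16, 17 and 12, below the filter. The ratio of its summed counts per TMM-scaled library size was 7.32, with a 95% interval of 3.11 to 21 that covers counting error only.

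*ADAMTS1*, an inhibitor of angiogenesis as well as a versican-cutting enzyme (chromosome 21, 26835755 to 26845409), measured 98.2, 94.8 and 89.5 CPM with GFP and 46.1, 50.2 and 52.2 CPM with *Esrrg*. All *Esrrg* libraries lay below the controls, by 0.93 ± 0.09 on the log2 scale (adjusted p = 5.5e-05). Its neighbour *ADAMTS5*, the main aggrecanase of cartilage, was not called (48.2 ± 3.61 against 56.8 ± 2.71 CPM, 0.24). *ADAMTS9*, the most abundant ADAMTS gene per length, passed the test at less than 1.5-fold (290.2 ± 2.82 against 378 ± 3.24 CPM, 0.38, adjusted p = 0.00626). *ADAMTS4* was at 31.1 ± 2.63 against 27.9 ± 1.10 CPM and was not called. *ADAMTS20*, known from pigment cell migration, rose from 0.718 ± 0.0460 to 1.20 ± 0.0980 CPM (0.74 ± 0.24, adjusted p = 0.0263), a call that was lost without any 1 of the 3 GFP libraries or without *Esrrg* replicate 3 (0.69 to 0.77, adjusted p = 0.0672 to 0.0975). It was also lost under the replicate block (0.71, adjusted p = 0.0673), with DESeq2 (0.84, 0.0539), when libraries were scaled by size alone (0.42, 0.202) and in the read-fraction fit (0.93, 0.148).

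Of the 3 procollagen N-proteinases, which trim fibrillar procollagens, *ADAMTS3* passed the test at less than 1.5-fold (104 ± 3.63 against 78.2 ± 5.50 CPM, -0.42, adjusted p = 0.0041). *ADAMTS14* was not called (4.81 ± 0.827 against 5.39 ± 0.446 CPM) and *ADAMTS2* reached at most 8 counts. In the group of the 9 other ADAMTS genes, 6 were tested and *ADAMTS10* and *ADAMTS17* fell. Both act in fibrillin microfibrils. *ADAMTS10* (chromosome 19, 8580240 to 8610735) measured 11.8, 9.21 and 10.3 CPM against 3.89, 3.95 and 4.17 CPM, and the groups were far apart (log2 fold change -1.38 ± 0.14, adjusted p = 5.83e-05). *ADAMTS17* fell from 1.41 ± 0.329 to 0.217 ± 0.0600 CPM, a log2 fold change of -2.65 ± 0.34 (adjusted p = 0.000186) that rests on 4, 8 and 9 counts in the *Esrrg* libraries.

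The other members of that group moved less. *ADAMTS12* (21.7 ± 0.913 against 30.7 ± 1.60 CPM, 0.50), *ADAMTS7* (43.9 ± 0.657 against 34.4 ± 2.81 CPM, -0.35) and *ADAMTS19* (23.7 ± 2.07 against 18.6 ± 2.53 CPM, -0.35) passed the test at less than 1.5-fold, with adjusted p of 0.00155, 0.0114 and 0.0341 by edgeR. For *ADAMTS7*, 26.5% of its words of 31 bases also occur in transcripts of other genes and 19.4% on alternate contigs, so its counts are uncertain. Without *Esrrg* replicate 2, *ADAMTS12* was called higher (0.63, adjusted p = 1.12e-07). *ADAMTS6* was not called (12.7 ± 0.882 against 13.6 ± 1.12 CPM). *ADAMTS18* reached at most 14 counts, *ADAMTS16* 13 and *ADAMTS13* 0, which allows up to 3 counts in a library. *ADAMTS16* summed to 4 counts against 22, a ratio of 5.37 on the same scale (95% interval 1.82 to 21.4, counting error only). In the other direction, *ADAMTS18* summed to 33 against 14 (0.414, 0.205 to 0.795) and *ADAM7* to 26 against 11 (0.413, 0.184 to 0.865). With no filter on low counts *ADAMTS8* and *ADAMTS16* were called higher (edgeR adjusted p = 0.000121 and 0.0327). *ADAMTS18* and *ADAM7* were not called in that fit (0.0891 and 0.181).

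For the ADAMTS-like proteins, which have the outer domains without the protease, and papilin, 6 of 8 listed genes were tested, 0 rose and 1 fell, *ADAMTSL2* (log2 fold change -3.95 ± 0.59 at a mean of 11.7 counts). Of 19 listed lecticans, link proteins, collagens and other matrix substrates 12 were tested, 2 rose and 3 fell (41.7% called), with a median of -0.10. *BCAN*, which encodes the brain proteoglycan brevican, rose from 9.49 ± 0.761 to 23.6 ± 1.76 CPM (1.31), and *COL4A1* of basement membranes also rose (0.68). The 3 that fell were *RELN*, the secreted guidance protein of migrating neurons (21.5 ± 1.36 to 5.90 ± 0.461 CPM, -1.87), *COL1A2* (-1.47) and *HAPLN3* (-0.92).

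Among the MMPs the genes called higher were mostly those of 1 cluster. On chromosome 11, 9 MMP genes lie within 435 kb (102520508 to 102955732), all on the minus strand, and the 4 of them that were tested, *MMP10*, *MMP1*, *MMP3* and *MMP12*, all rose. These 4 are consecutive in the cluster. The other 5 had a mean of at most 1.17 counts, so nothing can be said of them at this depth.

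*MMP1*, the interstitial collagenase that opens fibrillar collagens, measured 24.9, 37.1 and 30.9 CPM with GFP and 62.8, 87.4 and 73.4 CPM with *Esrrg*. Each *Esrrg* library was above the highest control (log2 fold change 1.27 ± 0.16, 2.41-fold, adjusted p = 0.000157), in every alternative fit at 0.92 to 1.48. *MMP3*, stromelysin-1, which activates other proMMPs, measured 0.993, 1.68 and 1.39 CPM against 4.34, 8.76 and 7.51 CPM. It had the largest rise of the 45 tested members (log2 fold change 2.34 ± 0.29, 5.06-fold, adjusted p = 0.00014), with *Esrrg* replicate 2 the lowest of its group and still above every control. *WTAPP1*, a pseudogene transcribed from the other strand, faces 8.15% of the *MMP1* and 1.73% of the *MMP3* exon bases and reached at most 17 counts.

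*MMP10*, stromelysin-2, measured 1.28, 3.20 and 1.75 CPM with GFP and 3.37, 4.04 and 3.93 CPM with *Esrrg*. GFP replicate 3 came within reach of the lowest *Esrrg* library, and the log2 fold change of 0.86 ± 0.29 (adjusted p = 0.0296) was no longer called without GFP replicate 1 (0.62, adjusted p = 0.108), GFP replicate 4 (0.75, 0.107), *Esrrg* replicate 3 (0.82, 0.0895) or *Esrrg* replicate 4 (0.84, 0.068), nor when libraries were scaled by size alone (0.54, 0.153) or in the read-fraction fit (0.58, 0.266). *MMP12*, the macrophage elastase, measured 2.09, 3.14 and 2.05 CPM against 3.63, 4.99 and 4.28 CPM. Its groups were apart (0.83 ± 0.22, adjusted p = 0.00924), but its call was lost in the read-fraction fit (0.48, adjusted p = 0.27) and when libraries were scaled by size alone (0.50, 0.0802). The 4 immune cell markers summed to 2.91 to 3.62 CPM with GFP and 2.88 to 3.08 CPM with *Esrrg*.

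**Figure D4:**
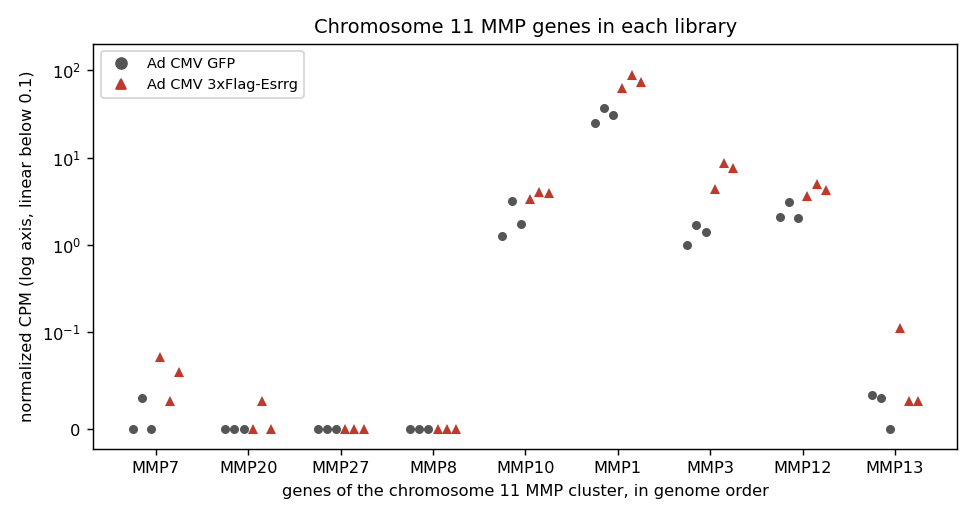
The 9 MMP genes of the chromosome 11 cluster in genome order on the x axis, with normalized CPM in each library on the y axis (log scale, linear below 0.1; grey circles, Ad CMV GFP; red triangles, Ad CMV 3xFlag-Esrrg). MMP10, MMP1, MMP3 and MMP12 are higher in all 3 Ad CMV 3xFlag-Esrrg libraries, and the other 5 are at or near 0.

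Neither gelatinase was called. *MMP2* was at 557 ± 32.2 against 613 ± 51.7 CPM with a log2 fold change of 0.14 (adjusted p = 0.318 by edgeR), and *MMP9* had 4 to 15 counts in each library (-0.30 ± 0.49). *MMP19* (1.18 ± 0.195 against 0.865 ± 0.236 CPM, -0.44) and *MMP21* (4.56 ± 0.228 against 3.06 ± 1.10 CPM, -0.59, adjusted p = 0.0584) were not called either, although without *Esrrg* replicate 2 *MMP21* was called lower (-0.79, adjusted p = 0.00019). *MMP21*, known for its part in left-right patterning, shares exon bases with *EDRF1* on the other strand. *MMP28* and *MMP13* reached at most 3 counts, *MMP7* 2, and *MMP11* and *MMP20* 1, while *MMP8*, *MMP26* and *MMP27* had 0, which allows up to 3 counts in a library. More than 80% of the words of *MMP11* (91.0%) and *MMP28* (84.8%) lie on alternate contigs as well.

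All 6 membrane-type MMPs were tested, 1 rose and 2 fell. *MMP17*, which is held by a lipid anchor (chromosome 12, 131828393 to 131851783), measured 8.41, 7.63 and 6.83 CPM with GFP and 13.1, 15.7 and 19.2 CPM with *Esrrg*. All *Esrrg* libraries were higher (log2 fold change 1.07 ± 0.15, 2.10-fold, adjusted p = 0.000345), and with the correction for GC content and length the value was 0.51, under 1.5-fold. *MMP16*, a transmembrane enzyme of brain and neural tumours, measured 188, 169 and 164 CPM against 127, 99.0 and 92.7 CPM. The *Esrrg* libraries were the lower ones (-0.71 ± 0.13, adjusted p = 0.00114), with -0.31 in the read-fraction fit and -0.38 under the GC and length correction, both less than 1.5-fold.

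*MMP25*, the other MMP with a lipid anchor and known from leukocytes, fell from 0.869 ± 0.112 to 0.348 ± 0.0104 CPM (-1.30 ± 0.29, adjusted p = 0.00419). Its call was lost in the read-fraction fit (-1.35, adjusted p = 0.158), and it was not tested where 10 counts were asked for in every library. Of its exon bases 30.6% face *MMP25-AS1*, which was not called (-0.38), and 26.0% of its words occur in other transcripts, so its counts are uncertain. *MMP14*, which activates proMMP2 at the cell surface, was the most abundant of these 6 per length and was not called (119 ± 5.00 against 138 ± 14.4 CPM, 0.21, adjusted p = 0.111). *MMP15* (7.93 ± 0.861 against 6.68 ± 0.677 CPM) and *MMP24* (9.65 ± 0.434 against 9.43 ± 0.459 CPM) were not called, and of the pair *MMP15* alone became called in an alternative fit, when corrected for GC content and length (-0.75, adjusted p = 0.00112) or for these and the replicate number (-0.78).

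**Figure D5:**
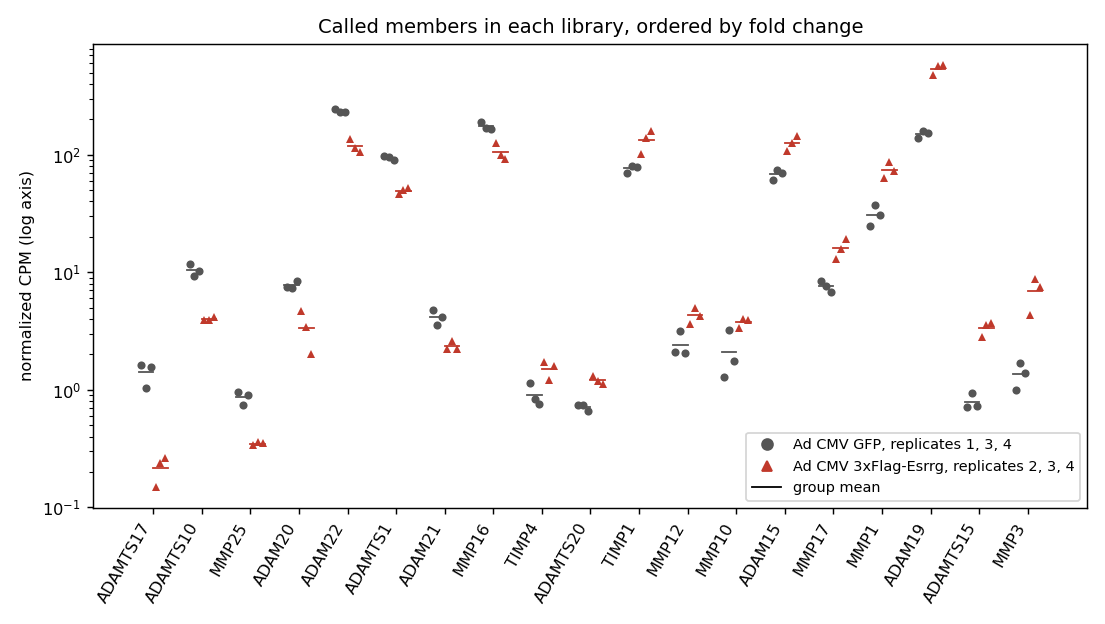
The 19 called members in order of fold change, with normalized CPM in each library on a log y axis (grey circles, Ad CMV GFP replicates 1, 3 and 4; red triangles, Ad CMV 3xFlag-Esrrg replicates 2, 3 and 4; lines, group means). The groups overlap in none of the 19, and the narrowest separations are in MMP10 (highest control 3.20, lowest Esrrg library 3.37) and TIMP4 (1.14 and 1.22).

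Other genes that restrain or induce metalloproteases, or belong to the plasminogen system that activates proMMPs, were called in 8 of 11 tested cases, 6 higher and 2 lower, with a median log2 fold change of 0.70. That is 72.7% called, against 34.1% of all genes and 38.3% of protein-coding genes, whose medians were -0.10 and 0.12. This list was chosen with earlier results of these data known, so its share is a description only. *TFPI2*, an inhibitor that blocks plasmin and some MMPs (1.34), *BSG*, which encodes the MMP inducer basigin (310.3 ± 27.5 to 668 ± 125 CPM, 1.11), and *PLAUR*, the urokinase receptor (0.97), were among those that rose. *PLAT*, the tissue plasminogen activator, fell from 286 ± 13.1 to 141 ± 11.5 CPM (-1.02), and the broad protease inhibitor *A2M* fell by 0.96 on the log2 scale. Of the astacin and pappalysin metalloproteases 4 of 8 were tested. *PAPPA*, which cuts IGF-binding proteins, rose from 51.0 ± 4.31 to 116 ± 7.15 CPM (1.19), *TLL2* rose (1.59) and *MEP1B* fell (-0.98), both at low counts.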

How the data were processed

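RNA sequencing counts were analysed for the 6 SH-SY5Y libraries, grouped by their labels. The authors deposited raw counts per gene. The submitters' notes name CASAVA, Trim Galore 0.6.7, STAR 2.7.9a, HTSeq 0.11.3, DESeq2 and GRCh38. The annotation release and the strand setting are not given in the sources used here. Of the identifiers, 60419 (90.1%) matched GENCODE release 44, which supplied symbols and exon lengths.

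Counts were filtered with filterByExpr, scaled by TMM and tested in edgeR 4.0.16 (R 4.3.3) with the quasi-likelihood test and Benjamini-Hochberg adjustment. Log values used a prior count of 2. On simulated data for this comparison (23781 genes, 200 changed), 140 changes were recovered with 4 false calls, and 100 of 109 at a mean of 50 counts or more. Intervals and limits from counts cover counting error only.

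Members, roles and lists were chosen with earlier results of these data known. Values in every library are given for TIMPs, *ADAM10*, *ADAM17* and those called members whose mean reached 50 counts, and up to 5 called genes were named per list. Some genes that this rule selects are left out of the text. *A2M*, *ADAMTSL2*, *LGI1*, *MEP1B*, *NCAM1*, *NRCAM*, *TLL2*, *CYFIP2*, *WTAPP1*, *MMP25-AS1* and *EDRF1* were added after their values were seen. Alternatives were DESeq2 1.42.0, other scalings, filters and fold cutoffs, protein-coding genes only, single libraries left out, the replicate number as a block, a GC and length correction (mgcv 1.9.3), both together, and the fraction of reads on no counted part of a gene as a term in the fit.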

Additional observations from a re-analysis of the deposited data

Results flagged for a closer look

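Reads that the main comparison does not use differed between the groups. Reads that fell on exons of more than 1 gene made up 9.84% of reads in the highest Ad CMV 3xFlag-*Esrrg* library, 9.79% in replicate 4 and 5.69% in replicate 2, against 4.55 to 4.87% in the Ad CMV GFP libraries. Reads that aligned to several places made up 13.0% in the highest Ad CMV 3xFlag-*Esrrg* library, 12.7% in replicate 3 and 9.33% in replicate 2, against 7.16 to 7.41% in the Ad CMV GFP libraries. Both classes leave out reads of members that overlap other genes or have near copies, such as *TIMP4*, *MMP25* and *ADAM21*, and their part in the values of these genes was not tested.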

How the results depend on the processing

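The counts of members called kept within 1.5 times of 11 higher and 8 lower with RLE size factors, with both other filters, among protein-coding genes only, when corrected for GC content and length, without a fold cutoff and with DESeq2. When libraries were scaled by size alone they were 5 higher and 15 lower with a median of -0.32. When the fraction of reads on no counted part of a gene was added to the fit they were 5 and 5 (3096 genes changed in all), and with a 2-fold cutoff 5 and 4 (3934 in all). The median of the members was -0.14 among protein-coding genes only (5282 genes changed), -0.20 when corrected for GC content and length and 0.13 with DESeq2. When single libraries were left out, 9 to 12 members were called higher and 8 to 9 lower, the median was -0.0015 to 0.0892, and 6738 to 10961 genes changed. The cause of these shifts was not tested. Of the 19 called members 16 were called in every fit that left out 1 library (all but *ADAMTS20*, *MMP10* and *TIMP4*), 15 when corrected for GC content and length and 13 when scaled by size alone, with other members newly called in the last 2 of these. Of the 26 others 14 were uncalled in every alternative fit at the 1.5-fold cutoff.

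The numbers 3 and 4 occur in both groups, and the deviations of their libraries correlated at r = 0.075 and -0.000102 over genes. Differently numbered pairs ran from -0.131 to 0.139, both with *Esrrg* replicate 2. With 3 libraries per group this cannot tell whether equal numbers mark a shared culture or batch. Numbers 1 and 2 occur in 1 group each, so the replicate block compares the groups only within numbers 3 and 4. With the replicate block 10 members were higher and 9 lower (10435 genes changed in all), *ADAMTS6* was -0.0157 and *MMP24* 0.0096. With the replicate block and that correction together, 11 were higher and 12 lower with a median of -0.24, and the sign turned for *ADAM10* (0.23), *TIMP2* (-0.24), *ADAMTS14* (-0.29), *ADAM23* (0.052), *MMP14* (-0.23) and *MMP2* (-0.26).

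Elsewhere the sign also turned in uncalled members only. With DESeq2 *ADAM23* was 0.0872, *MMP24* 0.0604 and *ADAM11* 0.0723. With RLE size factors these were 0.0737, 0.0465 and 0.0583. When corrected for GC content and length *ADAM10* was 0.15, *ADAM23* 0.0723, *ADAMTS14* -0.28, *MMP2* -0.20, *TIMP2* -0.23 and *MMP14* -0.19. When scaled by size alone *ADAMTS14* was -0.15, *ADAMTS5* -0.0785, *MMP14* -0.11, *ADAM17* -0.20, *TIMP2* -0.29, *ADAM32* -0.0836, *ADAMTS6* -0.22 and *MMP2* -0.18. Without a filter *ADAM23* was 0.0027, and among protein-coding genes only *TIMP2* was -0.0993, *ADAM17* -0.0254 and *ADAMTS6* -0.042. In the read-fraction fit *MMP9* was 0.95, *MMP21* 0.19, *TIMP2* -0.23, *MMP2* -0.0393, *ADAM11* 0.0425 and *ADAM23* 0.0637. When single libraries were left out, *ADAM11* ran from -0.0974 to 0.0713, *MMP24* from -0.0664 to 0.0892, *ADAM23* from -0.0075 to 0.0779, *MMP9* from -0.73 to 0.10 and *TIMP2* from -0.0322 to 0.23.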

Other observations

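Some relatives outside the membership rule were counted in the same libraries. The pseudogene *ADAM20P1*, which lies between *ADAM21* and *ADAM20*, had a log2 fold change of -0.99 (168, 190 and 180 counts against 106, 86 and 81) and was called lower like both of them. The pseudogene *ADAM1B* was called lower as well (-0.94). *ADAMTS9-AS2*, a long noncoding RNA that begins near the start of *ADAMTS9*, was called lower (-1.17), whereas *ADAMTS9* itself had a log2 fold change of 0.38. *MMP24OS*, which overlaps *MMP24* on the other strand, was called higher (0.74) while *MMP24* had -0.03. *TM2D2*, the neighbour of *ADAM9*, was called higher (1.07). These relatives were chosen after their values were seen.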
